A study of Homo sapiens with 24 samples.

Results

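The clustered protocadherins are cadherin-like cell-surface proteins whose genes lie side by side on human chromosome 5. The genes were taken by symbol, as PCDHA followed by a number or by C1 or C2, PCDHB followed by a number, and PCDHGA, PCDHGB or PCDHGC followed by a number. This gave 54 of the 60641 gene symbols shared by the 24 RNA-seq libraries: 14 alpha genes with a plain number, 2 alpha C genes, 16 beta genes, 12 gamma A genes, 7 gamma B genes and 3 gamma C genes. All 54 lie on the plus strand of chromosome 5 between positions 140786136 and 141512977 (GRCh38, GENCODE). The choice used only the names and no measured value.

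Each alpha or gamma transcript joins 1 large variable exon, which encodes the extracellular cadherin repeats and has its own promoter, to constant exons shared by the whole alpha or gamma cluster. Beta genes are single-exon genes and share no exon. The proteins bind copies of themselves on neighbouring cells, and in neurons a stochastic choice of promoters gives each cell its own combination, by which branches of the same neuron recognise and avoid each other. The alpha C and gamma C genes are exempt from that choice and are broadly active in neurons. Promoter choice is known to involve CTCF, cohesin loops to distal enhancers and DNA methylation, and many carcinomas methylate stretches of these clusters.

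The study deleted predicted DNA-binding domains (DBDs) of transcribed noncoding sequences with CRISPR/Cas9, and sequenced RNA from DBD KO and wild type (WT) cells. A549 is a lung adenocarcinoma line and HCT116 a colorectal carcinoma line. The A549 groups were MSTRG.2513.6 DBD KO, MSTRG.4401.1 DBD KO and WT. The HCT116 groups were MSTRG.2513.6 DBD KO, MSTRG.4401.1 DBD KO, MSTRG.34636.7 DBD KO and 2 wild-type sets. Each of the 8 groups had 3 libraries, no further allele or agent is given, and the wild-type sets are called WT A and WT B after the letter in their sample titles (A549 WT carries B). The MSTRG.34636.7 DBD KO was compared with WT A, whose letter it shares, and all others with WT B. The labels do not say whether a KO line is 1 clone or whether replicates are separate cultures, so p-values measure only the spread between these libraries. No MSTRG name is among the gene symbols, so the targeted transcripts were not analysed here.

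Promoter sequence is shown for 5 members on which the results below turn: the highest A549 member among the alpha genes with a plain number, the highest beta member of A549, the alpha C member at a like level in both lines, the gamma member that rose most clearly in an A549 KO, and the highest variable gamma member of HCT116. Each run of 300 bases goes from 250 bases before to 50 bases after the annotated gene start (RefSeq, GRCh38.p14), 5′ to 3′. Capitals mark CGCT, the core of the conserved sequence element known from protocadherin promoters, or AGCG, the same letters on the other strand.
PCDHA12, chr5:140875058-140875357, plus strand: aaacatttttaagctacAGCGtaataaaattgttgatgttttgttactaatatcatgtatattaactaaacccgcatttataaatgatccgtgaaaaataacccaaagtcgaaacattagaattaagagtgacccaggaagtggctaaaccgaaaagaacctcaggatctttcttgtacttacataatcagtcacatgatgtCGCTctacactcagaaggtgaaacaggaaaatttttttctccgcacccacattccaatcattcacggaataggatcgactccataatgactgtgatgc
PCDHAC2, chr5:140966226-140966525, plus strand: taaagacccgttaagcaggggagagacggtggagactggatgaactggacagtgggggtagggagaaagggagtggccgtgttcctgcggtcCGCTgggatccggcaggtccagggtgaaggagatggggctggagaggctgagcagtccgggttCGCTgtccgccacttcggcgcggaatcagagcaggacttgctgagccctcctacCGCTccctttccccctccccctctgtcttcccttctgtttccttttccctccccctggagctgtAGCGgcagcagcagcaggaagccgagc
PCDHB2, chr5:141094365-141094664, plus strand: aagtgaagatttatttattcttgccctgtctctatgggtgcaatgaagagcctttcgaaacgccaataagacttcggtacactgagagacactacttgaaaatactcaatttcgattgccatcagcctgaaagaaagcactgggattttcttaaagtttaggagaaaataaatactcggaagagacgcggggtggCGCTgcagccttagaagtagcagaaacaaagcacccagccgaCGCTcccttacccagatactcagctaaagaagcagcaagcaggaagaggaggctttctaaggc
PCDHGB5, chr5:141397697-141397996, plus strand: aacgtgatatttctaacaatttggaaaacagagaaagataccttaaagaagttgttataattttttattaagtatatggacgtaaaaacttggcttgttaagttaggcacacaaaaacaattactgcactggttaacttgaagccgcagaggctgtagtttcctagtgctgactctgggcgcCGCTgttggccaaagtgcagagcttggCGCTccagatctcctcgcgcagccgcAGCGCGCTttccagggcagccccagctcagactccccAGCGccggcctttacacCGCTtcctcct
PCDHGA10, chr5:141412737-141413036, plus strand: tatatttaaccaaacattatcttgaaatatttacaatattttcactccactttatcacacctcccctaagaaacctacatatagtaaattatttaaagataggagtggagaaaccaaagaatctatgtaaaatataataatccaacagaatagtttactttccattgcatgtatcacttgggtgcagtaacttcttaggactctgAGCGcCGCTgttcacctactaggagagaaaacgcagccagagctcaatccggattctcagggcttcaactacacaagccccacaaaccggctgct
The RefSeq table held a promoter for 47 of the 54 members. CGCT stood on either strand in 46 of these 47 windows (97.9%), against 70% of all 35116 promoters of the same length. In 42 of 47 (89.4%) it stood on the gene's own strand 90 to 30 bases before the start, a span chosen after the positions were seen, against 19.1% of all promoters. It did so in all 5 printed sequences. The exceptions were PCDHA9, PCDHB5, PCDHB8, PCDHGA1 and PCDHGB2. CANNAGNGG, a short core of the CTCF motif searched on both strands, was in 5 of 47 windows (10.6%) against 18.7% of all promoters; in PCDHGB5 it overlapped a CGCT core. These are letter matches only.

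Libraries held 25799359 to 102261808 gene counts, so that 3 counts, taken as the floor of detection, equal 0.0293 to 0.116 CPM (counts scaled to a library total of 1000000), and 33 to 54 members had a count in a library. Floors and intervals cover counting error only. The share of counts from mitochondrial genes was 3.50 to 7.87% in the A549 MSTRG.4401.1 KO, the shallowest group, and 1.39 to 3.24% elsewhere. EPCAM, an epithelial adhesion protein, was at 1.26 to 3.95 CPM in A549 libraries and 111 to 247 CPM in HCT116, leaving S8 and S9 aside. CDX2, the intestinal transcription factor, was at 0 to 1.20 and 13.9 to 23.6 CPM. Of the 3 epithelial markers, EPCAM (log2(fold change) -5.84) was lower in A549 WT B than in HCT116 WT B and KRT18 (1.35) was higher. The list median was 0.60, and the 3 summed to 3823 to 4199 CPM in A549 WT B and 2672 to 2846 CPM in HCT116 WT B. Of the 4 intestinal markers, CDX2 and KRT20 were lower in A549 WT B than in HCT116 WT B and CDH17 and VIL1 were higher. The lung factor NKX2-1 was lower in A549 WT B (-3.81), and it was at 0 in all A549 MSTRG.2513.6 KO libraries. It is 1 of 4 lung markers, of which 3 were tested between the wild-type lines, with a median log2(fold change) of 0.02. The 4 summed to 3.31 to 4.76 CPM in A549 WT B and 4.78 to 5.02 CPM in HCT116 WT B. Of 5 neuronal markers, STMN2 was at 0 in every group, while SNAP25 was at 11.4 to 23.96 CPM in A549 and at most 0.530 CPM in HCT116, again leaving S8 and S9 aside. Between the wild-type lines SNAP25, SYP (1.44) and RBFOX3 (4.66) were higher in A549 and MAP2 (-3.16) was lower.

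The libraries S8 and S9, labelled HCT116 MSTRG.2513.6 KO, stood apart from the third library of that label, S11. EPCAM was at 0.890 and 1.31 CPM in S8 and S9, and CDX2 at 0.636 and 0.406 CPM, where EPCAM in S8 lay just below the A549 range and the other 3 values inside it. Over all genes, S8 correlated with the A549 MSTRG.2513.6 KO libraries at r = 0.9922 to 0.9955 and with S11 at r = 0.9178 (log2(CPM + 1); genes are the points here, and they are not independent). The label is kept here only as a label, and results that rest on S8 and S9 are given with and without them.

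**Figure D1:**
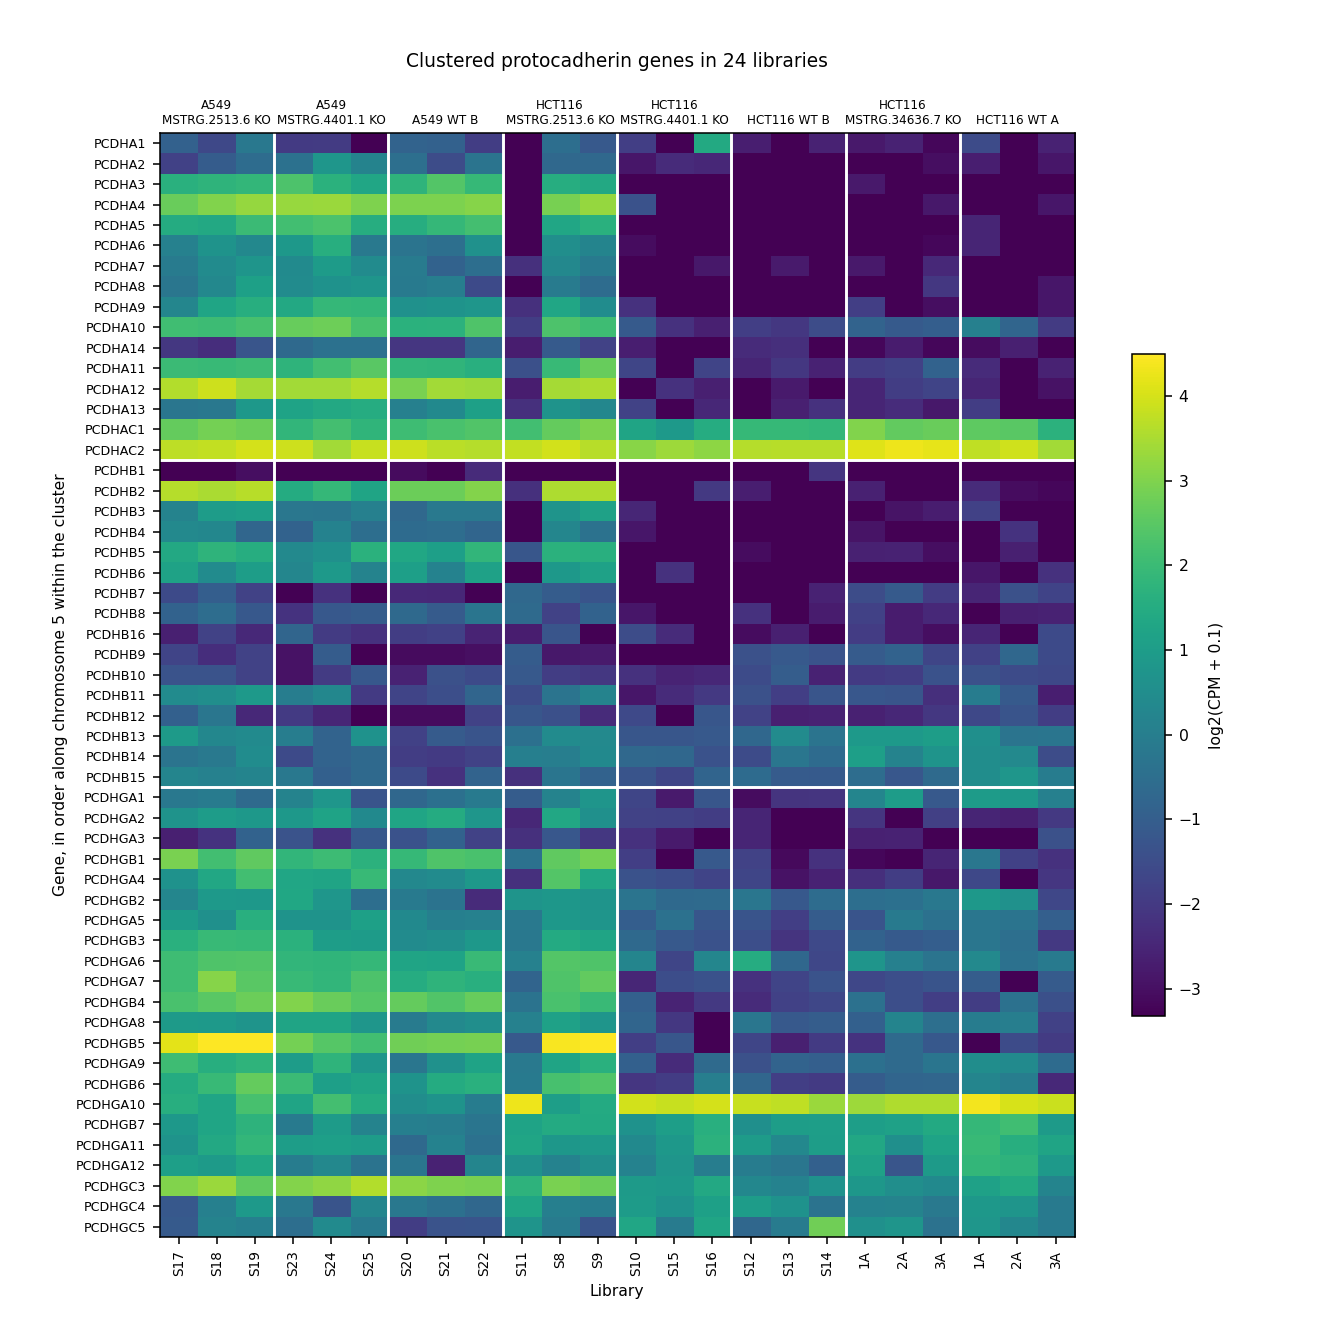
Level of the 54 clustered protocadherin genes (rows, in order within each cluster) in the 24 libraries (columns, by group), coloured by log2(CPM + 0.1). A549 libraries, and S8 and S9 labelled HCT116, show alpha, early beta and gamma genes that are near 0 in the other HCT116 libraries, while PCDHAC1 and PCDHAC2 are present in all 24.

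The first question was how the parental lines differ. In wild-type A549 the alpha genes with a plain number, the first genes of the beta cluster and most gamma A and gamma B genes were far higher than in wild-type HCT116, while PCDHAC1 and PCDHAC2 were at like levels in both and a few genes late in the beta and gamma clusters were higher in HCT116. Of 48 members tested by edgeR's quasi-likelihood test, 37 passed FDR < 0.1 (Benjamini-Hochberg over all genes tested) and |log2(fold change)| > 1 (called), where 35.7% of all genes were called. In A549, 32 were higher, where 17.2% of all genes were, and 5 were lower. The median log2(fold change) was 3.74 over the members and -0.02 over all genes. With the 10 members at 0 in every HCT116 WT B library set to the smallest change their floor allows, the members' median was 3.41. Only members that passed the filter on low counts enter these figures. Of the 32 called higher in A549, all but PCDHGA5, PCDHGA8, PCDHGA9 and PCDHGC3 passed it only through A549. PCDHB9 and PCDHB14, called lower, passed it only through HCT116. The direction of these genes was fixed by the filter, so the count of 32 and the medians rest largely on such genes. PCDHB1 and PCDHB16 passed it in no comparison of 2 groups. RNA of whole cultures was measured, so fewer expressing cells and less RNA per cell cannot be told apart.

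All 12 tested alpha genes with a plain number were higher in A549. Of these, 7 were at 0 in every HCT116 WT B library. The highest of the 12 in HCT116 WT B, PCDHA10, was at 0.172, 0.140 and 0.250 CPM there. All 12 passed the filter on low counts only through A549, so their direction was fixed by the filter. PCDHA4 was at 7.64, 7.63 and 8.25 CPM in A549 WT B and at 0 in all 3 HCT116 WT B libraries. Against a floor of 3 counts per library this is at least 152.9-fold higher. PCDHA3 and PCDHA5 were also at 0 in HCT116 WT B, and were at least 79.2-fold and 69.7-fold higher in A549. PCDHA12, the highest of these genes, gave 1481 counts in A549 WT B and 3 in HCT116 WT B, a ratio of 545.6 (95% counting interval 186.3 to 2648). Alpha transcripts share their last exons, and the own exon sequence of the alpha genes with a plain number ranged from 0% (PCDHA14, annotated as a pseudogene) to 78.6%, so values of neighbours may share reads. How the quantification with StringTie divided such reads was not given in the sources used here.

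By contrast, the alpha C genes at the end of the same cluster, which carry the same constant exons, differed little. PCDHAC2 was at 14.9, 12.8 and 12.3 CPM in A549 WT B and at 12.3, 12.5 and 12.6 CPM in HCT116 WT B. The groups overlapped (log2(fold change) 0.36 ± 0.13 SE, FDR = 0.052). PCDHAC1 was at 4.11 to 5.10 CPM in A549 and 3.49 to 3.71 CPM in HCT116, with no overlap but a change short of the fold threshold (0.61 ± 0.14, FDR = 0.0072).

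In the beta cluster, the 6 genes called higher in A549 all came before the 3 called lower. Not all later genes were lower: PCDHB10 (-0.02), PCDHB11 (0.53) and PCDHB15 (-0.47) were not called, with overlapping groups. PCDHB2, the highest beta member, gave 1119 counts in A549 WT B and 3 in HCT116 WT B, a ratio of 412.2 (140.7 to 2002). PCDHB6 was at 2.04, 1.01 and 2.12 CPM in A549 and at 0 in HCT116, at least 33.6-fold higher. In the other direction, PCDHB9 gave 3 counts in A549 WT B but 0.286, 0.358 and 0.299 CPM in HCT116 WT B, a ratio of 16.9 (5.49 to 84.4). PCDHB13 and PCDHB14, further along the cluster, were also lower in A549. For PCDHB13 log2(fold change) was -1.27 ± 0.45 (FDR = 0.0466), but -0.80 (FDR = 0.184) without S13, and the call was also lost without S20. PCDHB14 was at -1.35 ± 0.50 (FDR = 0.0511), and its call was lost without S21, S13 or S14 (FDR = 0.122 to 0.193).

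In the gamma cluster, PCDHGB5 was at 6.84, 7.13 and 7.31 CPM in A549 WT B and 0.210, 0.0623 and 0.150 CPM in HCT116 WT B (log2(fold change) 5.93 ± 0.34, FDR = 5.49e-06). PCDHGC3, a gamma C gene, was at 7.51 to 8.80 against 1.01 to 1.48 CPM (3.01 ± 0.21, FDR = 1.42e-05). PCDHGA10 ran the other way, at 1.32, 1.51 and 0.866 CPM in A549 and 14.2, 13.2 and 9.85 CPM in HCT116 (-3.05 ± 0.27, FDR = 5.30e-05). Every HCT116 WT B library was above every A549 WT B library for that gene. PCDHGC5 was also lower in A549, at 0.170, 0.303 and 0.313 CPM against 0.515, 0.857 and 6.90 CPM, and its value rested on S14 (-3.14 ± 1.02, FDR = 0.0329 with it and -1.16, FDR = 0.08 without it). The few counts in S13 or S12 likewise set the size of 3 other calls: PCDHA7 was at 5.33 and at 8.25 without S13, PCDHGA2 at 6.72 and at 10.1 without S12, and PCDHGA3 at 3.90 and at 7.28 without S12. With the remaining HCT116 WT B libraries at 0, the latter values depend on the prior count.

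**Figure D2:**
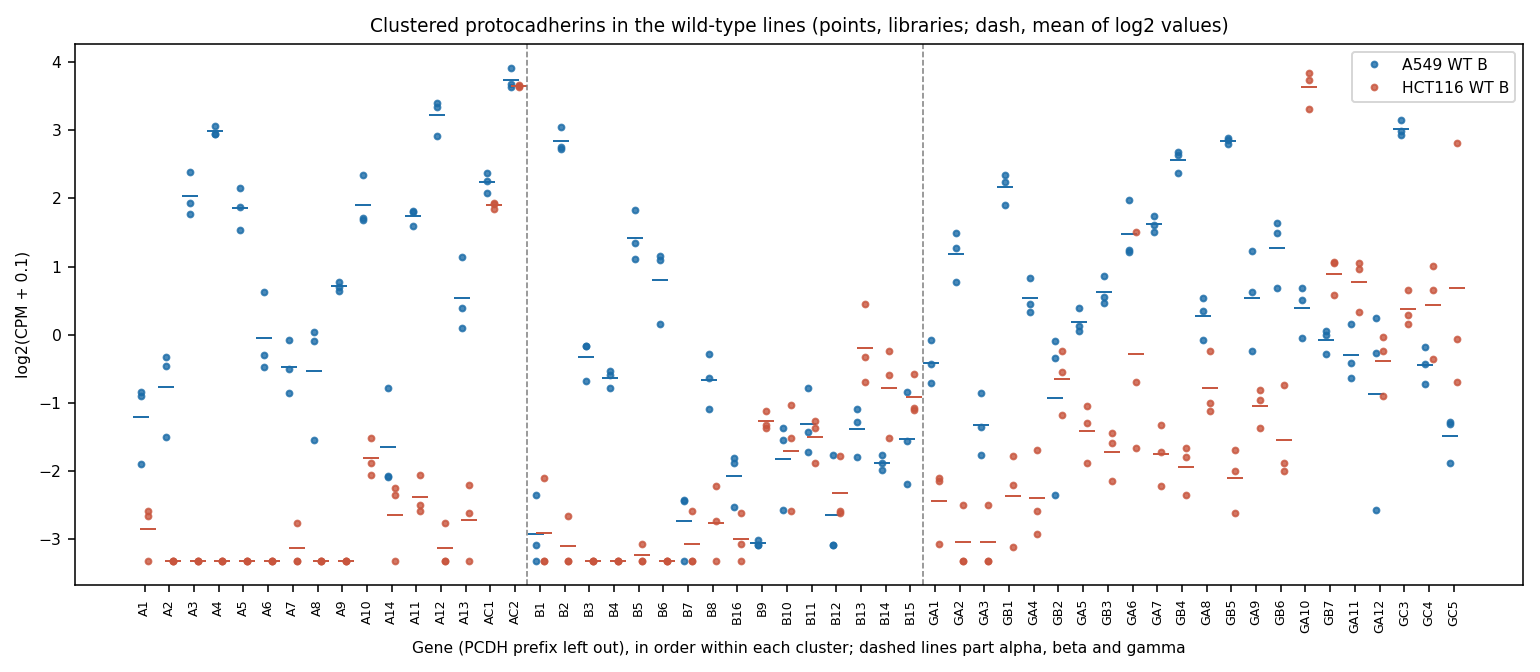
Level of each clustered protocadherin gene, as log2(CPM + 0.1), in order within its cluster in A549 WT B and HCT116 WT B, each point a library and each dash the mean. A549 values stand above HCT116 values through the alpha genes and early beta genes, the lines meet at PCDHAC1 and PCDHAC2, and PCDHGA10 is higher in HCT116.

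Which genes made up each cluster's counts differed between the lines in the same places. These gene ranges were chosen after the values were seen and carry no test. PCDHAC1 and PCDHAC2 gave 21.7 to 36.1% of alpha cluster counts in the 9 A549 libraries and 78.9 to 97.6% in 13 HCT116 libraries (all but S8 and S9). PCDHB9 to PCDHB15 gave 6.51 to 30.9% of beta cluster counts in A549 and 65.7 to 98.2% in HCT116. For the gamma cluster, the genes from PCDHGA10 to PCDHGC5 gave 22.8 to 35.5% and 70.5 to 88.1%. In S8 and S9 the alpha, beta and gamma shares were 32 to 34.8%, 16.9 to 17% and 19.9 to 20%, inside or below the A549 ranges. In HCT116 WT B, 6 members reached 1 CPM in every library (PCDHAC1, PCDHAC2, PCDHGA10, PCDHGB7, PCDHGA11 and PCDHGC3), and in A549 WT B 22 did.

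Per kilobase of exon, the highest members were close to each other within a line. PCDHAC2 stood at 2.17 ± 0.22 CPM per kb (SD, n = 3) in A549 WT B, PCDHB2 at 1.74 ± 0.22, PCDHA12 at 1.69 ± 0.30, PCDHGC3 at 1.48 ± 0.12 and PCDHGB5 at 1.45 ± 0.05. The ranges of mean ± SD of neighbours in this order overlapped. In HCT116 WT B PCDHAC2 stood at 2.03 ± 0.03 and PCDHGA10 at 1.87 ± 0.35, also within the spread, while the highest beta gene, PCDHB13, stood at 0.163 ± 0.077.

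**Figure D3:**
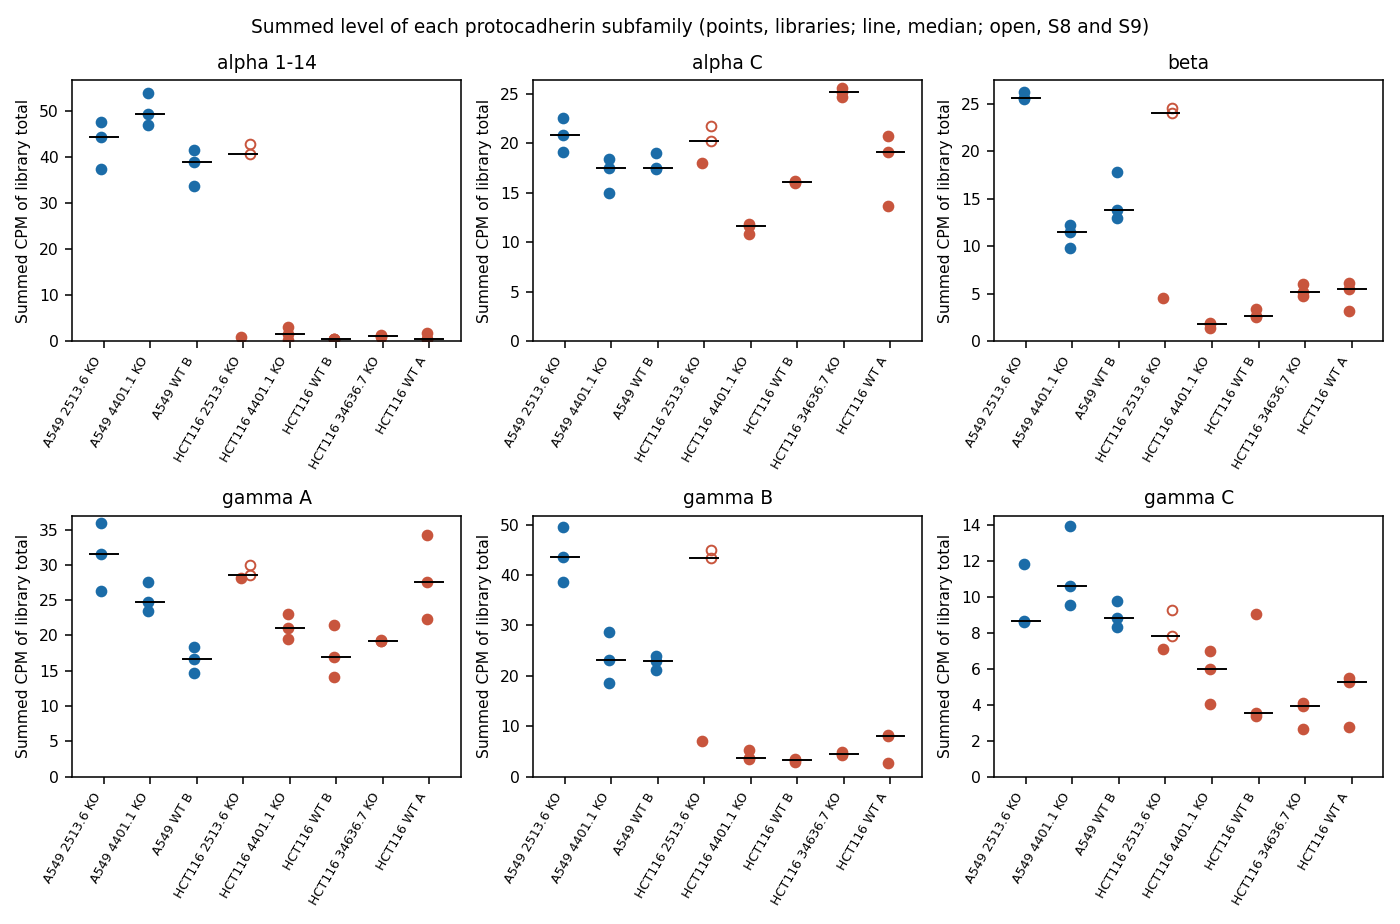
Summed CPM of each subfamily of clustered protocadherins by group, each point a library, the line the median and open points S8 and S9. Beta genes sum to between 25.5 and 26.2 CPM in the A549 MSTRG.2513.6 KO and to between 2.56 and 3.43 CPM in HCT116 WT B, and S8 and S9 stand above every other HCT116 library for the alpha genes with a plain number, the beta genes and the gamma B genes.

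The next question was what each DBD KO changed. In A549, members of the beta and gamma clusters were higher in the MSTRG.2513.6 KO than in WT B. Of the 50 tested members 10 were called, where 2.92% of all genes were, and all 10 were higher in the KO, where 1.13% of all genes were. They were 5 of 13 tested beta genes, 3 of 7 gamma B genes and 2 of 12 gamma A genes. Of these, PCDHB14 and PCDHB15 passed the filter on low counts only through the KO, so their direction was fixed by the filter. Of 13 alpha genes with a plain number edgeR called 0 (2 with an unadjusted p under 0.05), of 2 alpha C genes 0 (1 under 0.05) and of 3 gamma C genes 0 (1 under 0.05), while DESeq2 called no alpha gene and 1 gamma C gene, PCDHGC5. The subfamilies were not tested against each other. The median log2(fold change) was 0.69 over the members and -0.03 over all genes, and 26 members had an unadjusted p under 0.05. The beta genes, which share no exon, summed to 25.8 ± 0.39 CPM in the KO and 14.9 ± 2.57 CPM in WT B (SD, n = 3). Among markers of other cell types, neuronal markers summed to 38.7 to 39.8 CPM in the KO and 23.5 to 38.8 CPM in WT B, with 2 of 4 tested called (RBFOX3 at 1.71 and MAP2 at 1.01) and STMN2 at 0, and fibroblast markers summed to 8.09 to 15.3 CPM against 26.1 to 36.3 CPM with COL1A1 called (-1.45). Epithelial markers summed to 2699 to 3457 CPM against 3823 to 4199 CPM and glial markers to 55.3 to 66.4 CPM against 46.4 to 53.7 CPM, with none called by edgeR (2 of 3 and 1 of 2 under an unadjusted p of 0.05) or by DESeq2. Their part in the result was not tested.

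PCDHB14 was at 0.704, 0.786 and 1.28 CPM in the KO and 0.170, 0.151 and 0.192 CPM in WT B, without overlap (2.41 ± 0.38, FDR = 0.0159). PCDHB13, its neighbour, was at 1.83, 1.12 and 1.24 against 0.187, 0.370 and 0.313 CPM (2.28 ± 0.37, FDR = 0.0174). PCDHB11 was at 1.25, 1.34 and 1.75 against 0.204, 0.269 and 0.481 CPM (2.21 ± 0.35, FDR = 0.0165). These beta genes lie close together, and of them PCDHB13 and PCDHB14 were the ones lower in A549 than in HCT116 wild-type cells. PCDHB15, the last beta gene, was at 1.08, 0.978 and 1.05 against 0.238, 0.118 and 0.457 CPM (1.98 ± 0.45, FDR = 0.062), and its call was lost without S17, S18, S20 or S21 (FDR = 0.123 to 0.179). Near-identical beta genes can share reads: of 50-base stretches, a median of 14.1% occurred in another member for the beta genes, and 39.2% or more for the other subfamilies.

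Among gamma genes PCDHGB5 was at 17.98, 22.3 and 22.1 CPM in the KO and 6.84, 7.13 and 7.31 CPM in WT B (1.55 ± 0.14, FDR = 0.0013). The KO libraries were all above the WT libraries, and per kilobase it became the highest member of the group, at 4.26 ± 0.50 CPM per kb. PCDHGB3 also rose (1.27, FDR = 0.0159). The calls of PCDHB11, PCDHB13, PCDHB14, PCDHGB3 and PCDHGB5 were kept whichever library was left out. Those of the other called genes were not: PCDHGA11 (1.77, FDR = 0.0431) lost its call without S18, S20 or S22, PCDHGB7 (1.49, FDR = 0.0361) without S18, S21 or S22, PCDHGA10 (1.37, FDR = 0.0701) without any of the 6, and PCDHB3 (1.23, FDR = 0.096) without S18, S19, S20, S21 or S22. PCDHB2 was at 12.1, 11.4 and 12.5 CPM in the KO and 6.54, 6.64 and 8.16 CPM in WT B, without overlap but short of the fold threshold (0.76 ± 0.14, FDR = 0.0283). PCDHAC2 (0.08 ± 0.16) and PCDHGC3 (-0.03 ± 0.23) had overlapping groups, and PCDHA12 was not called (0.44, FDR = 0.293).

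The A549 MSTRG.4401.1 KO, compared with the same 3 WT B libraries, gave 6 called members of 46 tested, 5 higher and 1 lower. This was 13% of the members, a smaller share than the 15.4% of all genes called, of which 71.9% were higher. Of the 6, PCDHGC5 and PCDHB13 passed the filter on low counts only through the KO, so their direction was fixed by the filter. The members' median was 0.40, against 0.12 over all genes. PCDHB2 fell: it was at 2.71, 3.57 and 2.29 CPM in the KO and 6.54, 6.64 and 8.16 CPM in WT B (-1.40 ± 0.21, FDR = 0.0026). Beta counts summed to 11.2 ± 1.21 CPM against 14.9 ± 2.57 CPM. The gamma gene PCDHGC5 rose from 0.170, 0.303 and 0.313 CPM to 0.602, 1.24 and 0.838 CPM (1.69 ± 0.47, FDR = 0.025), and PCDHGA11 from 0.543, 1.01 and 0.650 CPM to 1.93, 2.02 and 1.91 CPM (1.32 ± 0.32, FDR = 0.0152), both without overlap. PCDHB13 was at 0.903, 0.465 and 1.49 against 0.187, 0.370 and 0.313 CPM (1.64 ± 0.53, FDR = 0.0432), a call lost without S25 or S20 (FDR = 0.123 to 0.169). PCDHGA10 (1.24 ± 0.35, FDR = 0.0273) fell short of the fold threshold without S24 or S22 (0.91 and 0.98), and PCDHA7 (1.09, FDR = 0.0523) lost its call without S24, S21 or S22. PCDHGB5, at 7.11, 5.31 and 4.27 CPM, overlapped the WT libraries (-0.44 ± 0.20, FDR = 0.126). Upper-quartile normalization moved the median of all genes from 0.12 to 0.28 and the higher share of all calls from 71.9% to 83.1%, and called 10 members, 9 higher and 1 lower. The mitochondrial share was 3.50 to 7.87% in this KO and 1.59 to 2.37% in the other A549 libraries, its libraries held 25799359 to 33205007 counts against 41563496 to 63893238, and its neuronal markers summed to 37.4 to 54.9 CPM with RBFOX3 (1.49) and MAP2 (2.02) called. Epithelial markers summed to 6306 to 8295 CPM against 3823 to 4199 CPM in WT B with 0 of 3 called, and colon markers to 15.9 to 22.3 CPM against 7.54 to 10.97 CPM with VIL1 (1.47) and CDX2 (-3.43) called. The glial marker GFAP (-1.09) was called too. The part of all these in the result was not tested.

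**Figure D4:**
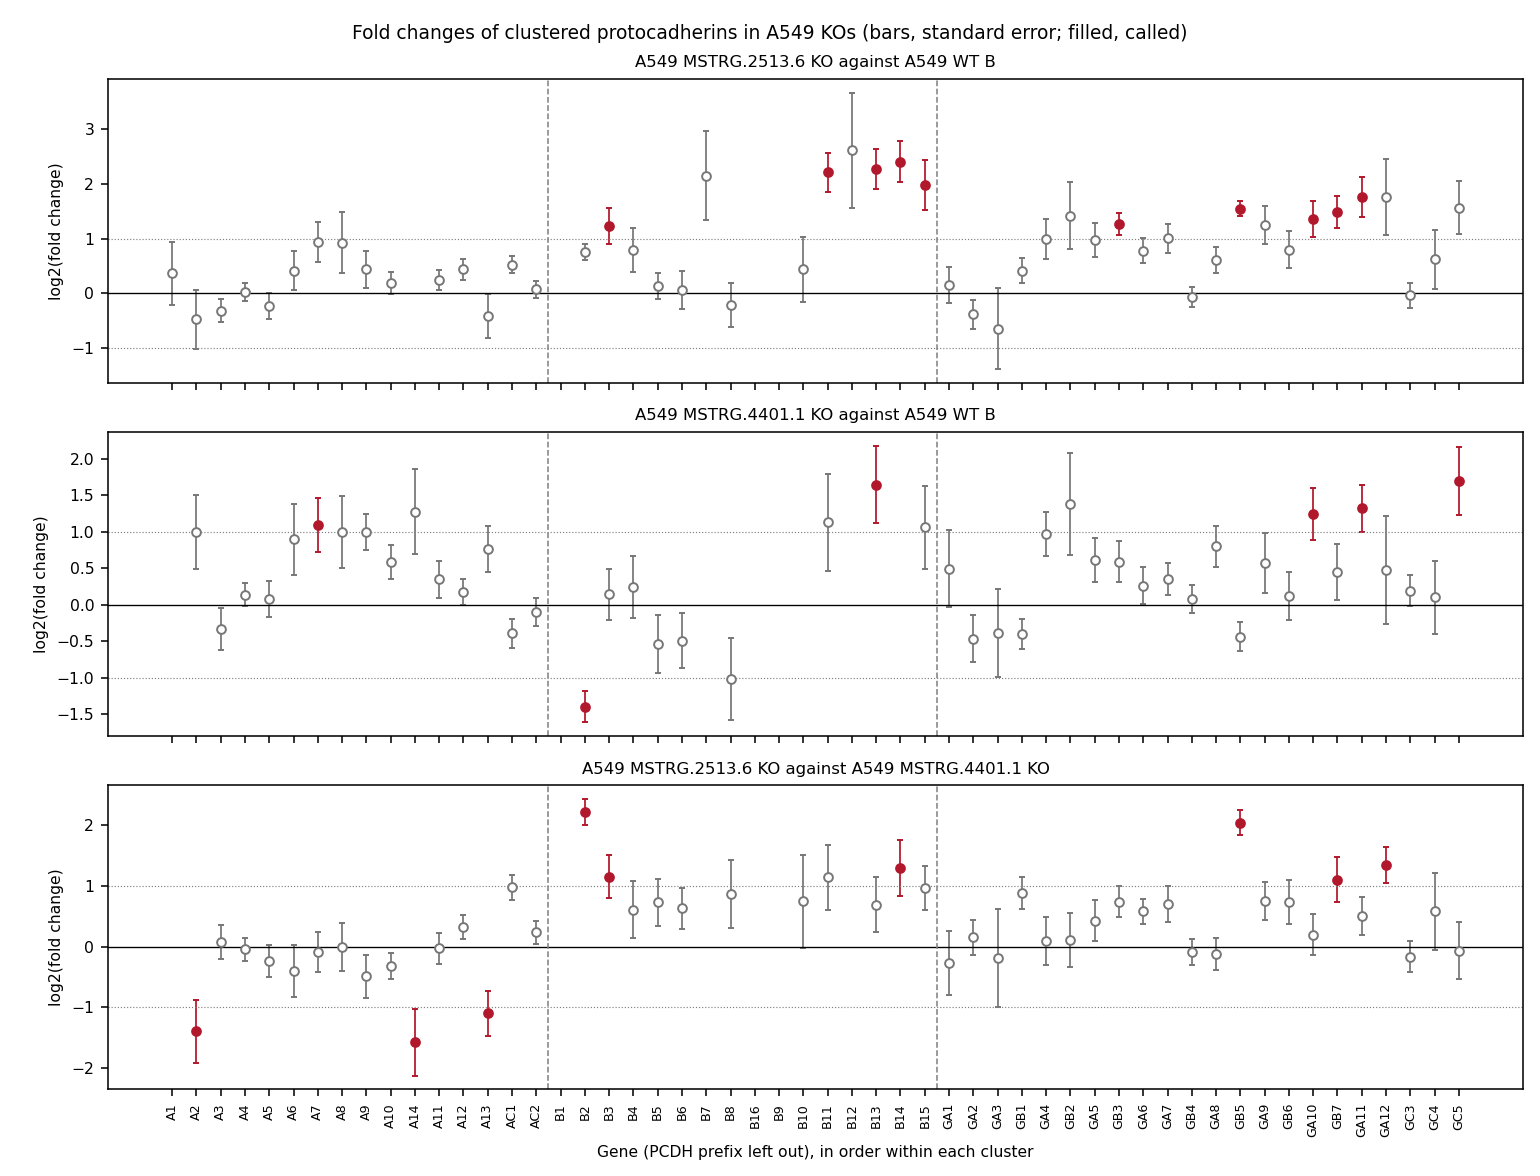
Fitted log2(fold change) of each tested member for each A549 KO against WT B and for one KO against the other, in order within each cluster, with bars for the SE and filled points for called members. Called points of the MSTRG.2513.6 KO against WT B are all above 0 and lie in the beta and gamma clusters, and PCDHB2 lies below 0 in the MSTRG.4401.1 KO at -1.40.

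The KO lines of A549 were also set against each other, with no shared control. Of 48 tested members 9 were called, where 16.6% of all genes were: 6 were higher in the MSTRG.2513.6 KO and 3, all alpha genes, were lower. The median was 0.38 over the members and -0.09 over all genes. PCDHB2 and PCDHGB5 gave the largest differences, 2.22 ± 0.21 (FDR = 0.000244) and 2.05 ± 0.21 (FDR = 0.000318), with no overlap in the values already given. PCDHGA12 was at 2.03, 1.80 and 2.42 against 0.873, 1.16 and 0.686 CPM (1.34 ± 0.30, FDR = 0.0124). These 3 calls were kept whichever library was left out. Markers called here were EPCAM (-1.06), KRT18 (-1.28), VIL1 (-2.47), KRT20 (-1.41) and CDX2 (3.52), and epithelial markers summed to 2699 to 3457 CPM in the MSTRG.2513.6 KO. Their part in the result, and that of depth and mitochondrial share, was not tested.

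The other 6 calls of this comparison each depended on single libraries. PCDHB14 (1.30 ± 0.46, FDR = 0.0642) and PCDHB3 (1.15) lost theirs without S18, S19, S23 or S24, and PCDHGB7 (1.11) without S18, S19, S23 or S25. Of the alpha genes, PCDHA14 (-1.58 ± 0.55, FDR = 0.0615) lost its call without S17, S18, S23, S24 or S25, and PCDHA2 (-1.40 ± 0.51, FDR = 0.0739) and PCDHA13 (-1.10 ± 0.37, FDR = 0.0558) without S17, S18, S24 or S25. PCDHA2 was at 0.188, 0.384 and 0.578 CPM in the MSTRG.2513.6 KO and 0.663, 1.63 and 1.03 CPM in the MSTRG.4401.1 KO. PCDHA2 and PCDHA14 passed the filter on low counts only through the MSTRG.4401.1 KO, and PCDHB14 only through the MSTRG.2513.6 KO. The direction of these genes was fixed by the filter. PCDHA14 has no exon sequence of its own, and its 50-base stretches all occur in other members. Upper-quartile normalization moved the median of all genes from -0.09 to -0.29 and the higher share of all calls from 34.6% to 20.2%, and called 3 members higher and 3 lower, without PCDHB3, PCDHB14 and PCDHGB7.

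**Figure D5:**
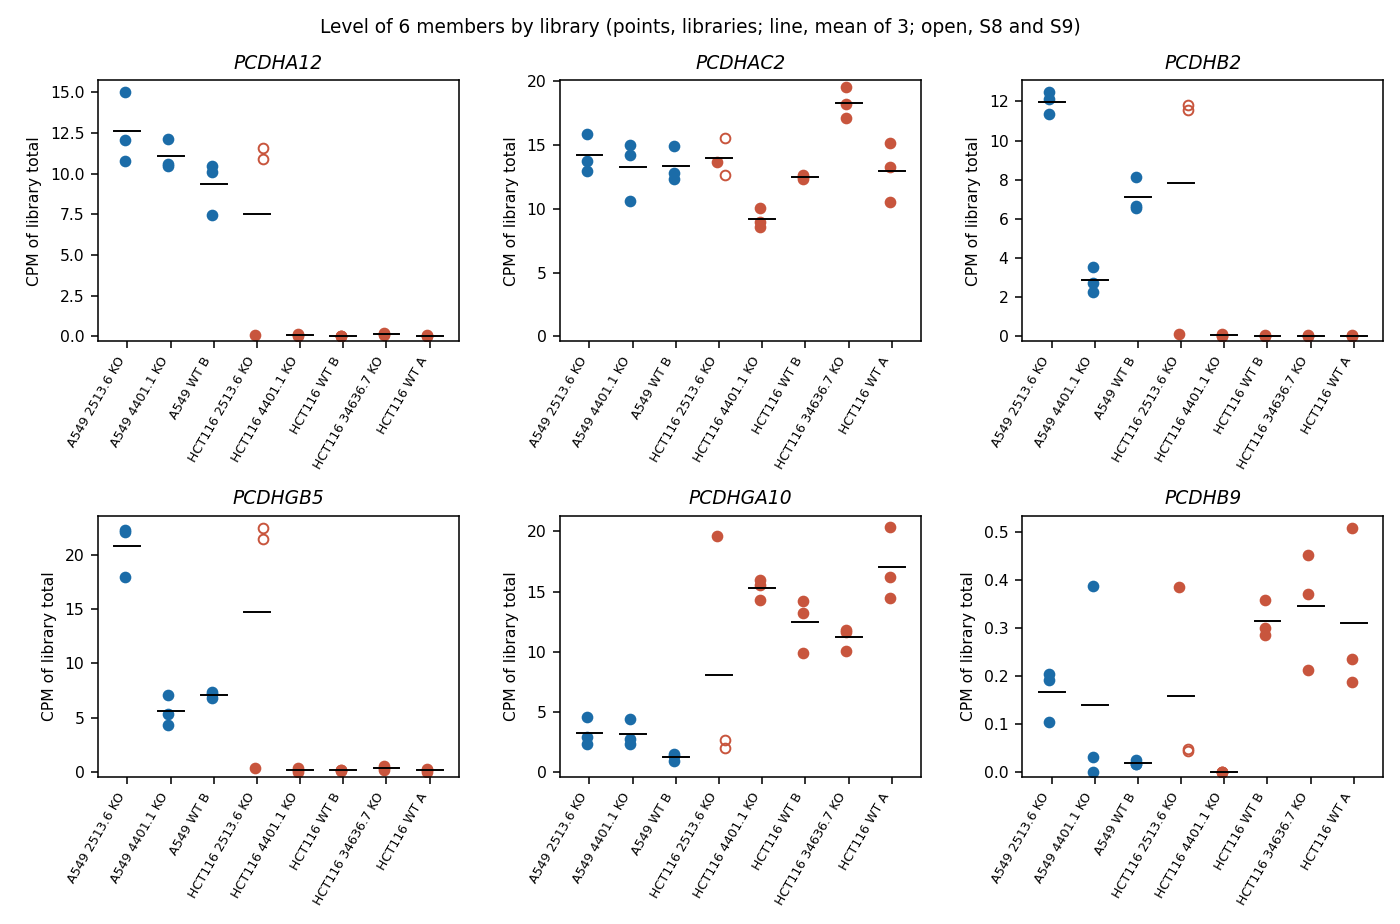
CPM per library of PCDHA12, PCDHAC2, PCDHB2, PCDHGB5, PCDHGA10 and PCDHB9 by group, with a line at each group's mean and open points for S8 and S9. PCDHGB5 lies between 17.98 and 22.3 CPM in the A549 MSTRG.2513.6 KO and between 6.84 and 7.31 CPM in A549 WT B, and PCDHB9 is at 0 in the 3 HCT116 MSTRG.4401.1 KO libraries.

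In HCT116, where most variable genes were near 0 to begin with, the MSTRG.4401.1 KO called 2 of 21 tested members, where 2.62% of all genes were called, and both were lower, where 1.62% of all genes were. None of the 14 alpha genes with a plain number passed the filter on low counts. Of the 2 called, PCDHB9 passed it only through WT B, so its direction was fixed by the filter. The median was -0.02 over the members and 0.00 over all genes. PCDHB9, the beta gene higher in HCT116 than in A549, was at 0.286, 0.358 and 0.299 CPM in WT B, 56 counts in all, and at 0 in all 3 KO libraries, at least 4.96-fold lower (FDR = 0.0104). That call was kept whichever library was left out, but not in a fit of all HCT116 libraries together (FDR = 0.121), and DESeq2 gave no adjusted p for it. PCDHB13 was at 0.329, 0.328 and 0.351 against 0.515, 1.26 and 0.699 CPM (-1.31 ± 0.40, FDR = 0.0823). Its call was lost without S10, S15, S16, S13 or S14, with a change of -0.85 without S13. PCDHAC2 was at 8.56, 10.04 and 8.95 CPM against 12.3, 12.5 and 12.6 CPM, lower in every KO library but short of the fold threshold (-0.46 ± 0.10, FDR = 0.0265), and the alpha C genes summed to 11.5 ± 0.53 against 16.1 ± 0.11 CPM. PCDHGA10 was at 15.6, 14.3 and 15.9 CPM in the KO, above every WT B library, and was not called (0.28 ± 0.14, FDR = 0.267). Neuronal markers summed to 8.35 to 8.97 CPM in the KO and 14.7 to 16.4 CPM in WT B, with MAP2 lower by the same test (-1.12) and STMN2 at 0. Epithelial markers summed to 1492 to 1605 CPM against 2672 to 2846 CPM, with KRT18 called (-1.57), and glial markers to 45.1 to 48.3 CPM against 58.7 to 61.6 CPM, with 0 of 1 called. Fibroblast markers summed to 31.6 to 41.7 CPM against 28.1 to 30.7 CPM, with COL3A1 called and at 0 in the KO. The part of these markers in the result was not tested.

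Whether the MSTRG.4401.1 KO acted differently in the 2 lines was tested as an interaction over 12 libraries, called at FDR < 0.1. It called 7 of 50 tested members, 3 positive and 4 negative (A549 effect minus HCT116 effect), where 26.9% of all genes were called. The median was -0.04 over the members and 0.10 over all genes. PCDHB9 (9.36, FDR = 0.00957, a size set by the prior count), PCDHB13 (2.94, FDR = 0.0114) and PCDHGA2 (-3.33, FDR = 0.0222) kept their calls whichever library was left out. For PCDHB13 the KO was higher than WT B in A549 and lower in HCT116. PCDHGA2 was at 1.72, 2.21 and 1.22 CPM in the A549 KO against 2.31, 2.71 and 1.61 CPM, and at 0.194, 0.188 and 0.165 CPM in the HCT116 KO against 0.0763, 0 and 0 CPM. Its value moved to -6.51 without S12. PCDHA1, PCDHA2, PCDHA4 and PCDHB11 lost their calls without single libraries, in 2, 5, 10 and 8 of 12 fits. Upper-quartile normalization moved the median of all genes from 0.10 to 0.24 and the higher share of all calls from 43% to 55.5%, and called 4 members positive and 3 negative.

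In the HCT116 MSTRG.34636.7 KO, 0 of 31 tested members were called by edgeR, where 1.34% of all genes were called. An unadjusted p under 0.05 was given for 5, and DESeq2 called 1, PCDHB15, named after its value was seen. The median was -0.27 over the members and -0.02 over all genes. PCDHAC2 was at 17.1, 19.5 and 18.2 CPM in the KO and 13.3, 15.1 and 10.5 CPM in WT A, without overlap (0.50 ± 0.16, FDR = 0.216). PCDHGA10 was at 10.1, 11.7 and 11.8 CPM against 20.3, 16.2 and 14.5 CPM, again without overlap (-0.61 ± 0.18, FDR = 0.182).

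The wild-type sets of HCT116 gave a background for these values. Their titles differ in the letter and in form, since WT B titles also carry an S number, and no label says how the sets were made. WT A was higher than WT B in 4 of 28 tested members, where 7.06% of all genes were called and 3.16% were higher in WT A. Of the 4, PCDHGA1 passed the filter on low counts only through WT A, so its direction was fixed by the filter. The median was 0.77 over the members and 0.03 over all genes. PCDHGA1 was at 1.84, 1.69 and 0.958 CPM in WT A and 0.0191, 0.125 and 0.133 CPM in WT B (3.93 ± 0.57, FDR = 0.00375). PCDHGA12 was at 3.53, 3.22 and 1.76 against 0.877, 0.748 and 0.433 CPM (2.02 ± 0.37, FDR = 0.0119). Both were higher in every WT A library, so the difference of PCDHGA1 between the lines depended on the set: it was 3.02 against WT B and -0.96 (FDR = 0.0555) against WT A. PCDHB15 (1.52 ± 0.35, FDR = 0.0346) lost its call without S13 or S14, and PCDHGA9 (1.37 ± 0.42, FDR = 0.0922) without 5 of the 6 libraries (S12, S13, S14, 1A or 2A; FDR = 0.162 to 0.282). PCDHGA3, PCDHGA5, PCDHGA8 and PCDHGA9 were called between the lines against WT B but not against WT A. PCDHAC2 overlapped between the sets (0.04 ± 0.16). Neuronal markers summed to 22.3 to 35.5 CPM in WT A and 14.7 to 16.4 CPM in WT B (RBFOX3 called at 2.56), and glial markers to 57.2 to 89.01 CPM against 58.7 to 61.6 CPM (GFAP called at 2.39). Their part in the result was not tested.

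The remaining comparison rests on S8, S9 and S11, which carry the HCT116 label for the MSTRG.2513.6 KO. Against HCT116 WT B, edgeR called 0 of 32 tested members, where 0.933% of all genes were called, although 19 had an unadjusted p under 0.05, DESeq2 called 19 and the median was 1.96 over the members and -0.02 over all genes. With S8 and S9 alone, 41 of 50 were called and 39 of them were higher (median 4.09, against -0.07 over all genes), where 37.2% of all genes were called. With S11 alone, whose spread was taken from the wild-type libraries, 2 of 33 were called (median 0.91, against 0.01 over all genes), where 8.69% of all genes were called. These were PCDHGC3 (1.33 ± 0.30, FDR = 0.0303), at 3.22 CPM in S11 against 1.13, 1.01 and 1.48 CPM, and PCDHGB2 (1.42 ± 0.47, FDR = 0.0931), at 1.57 CPM against 0.744, 0.343 and 0.582 CPM. PCDHGB5 was at 0.358 CPM in S11 and at 21.4 and 22.5 CPM in S8 and S9. Its log2(fold change) was 7.04 (FDR = 0.129) with all 3 libraries, 7.62 (FDR = 6.88e-06) without S11 and 1.27 (FDR = 0.415) without S8 and S9. PCDHGA10 was at 19.6 CPM in S11 and at 1.99 and 2.67 CPM in S8 and S9, so that its direction depended on the library.

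Over the 54 members, the median distance of S8 from the mean of the A549 MSTRG.2513.6 KO was 0.216 on the log2(CPM + 0.1) scale, 0.405 from the A549 MSTRG.4401.1 KO, 0.677 from A549 WT B and 2.14 to 2.60 from the other HCT116 groups. For S9 these were 0.232, 0.547, 0.579 and 2.08 to 2.64. S11 lay 1.69 to 2.14 from the A549 groups and 0.418 (WT A) to 0.705 from the other HCT116 groups, with 0.591 from WT B. Of the 10 members that rose in the A549 MSTRG.2513.6 KO, 9 were higher in both S8 and S9 than in every A549 WT B library, and 4 lay within the range of the A549 KO libraries in both. Of the 281 other genes called higher in that KO 94.3% met the first criterion and 33.5% the second, of the 40 members tested and not called 42.5% and 52.5%, and of all 25666 genes tested 14.7% and 40.1%. S8 and S9 carry an HCT116 label, so they were not added to any A549 group.

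The genes that organise or silence these clusters were followed in the same comparisons. Of 11 architectural regulators (CTCF, cohesin subunits and their loaders and release factors), 2 were called between the wild-type lines, where 35.7% of all genes were, STAG2 (1.04 ± 0.06, FDR = 7.51e-06), a cohesin subunit, and WAPL (-1.25 ± 0.15, FDR = 0.000297), which releases cohesin. In the A549 KOs edgeR and DESeq2 both called 0 of the 11. Of all genes, edgeR called 2.92% for MSTRG.2513.6 and 15.4% for MSTRG.4401.1. By edgeR, 1 of the 11 was under an unadjusted p of 0.05 for MSTRG.2513.6 (4300 of 25666 genes) and 6 for MSTRG.4401.1 (11322 of 24979 genes). Of 16 silencing regulators (DNA and histone methyltransferases, SMCHD1 and TET enzymes), both tools called 0 between the lines (8 under 0.05) and 0 in either A549 KO (2 under 0.05 for MSTRG.2513.6 and 8 for MSTRG.4401.1). For the A549 KOs both lists are too short for 0 calls to show that the regulators were unchanged. DNMT3B, a DNA methyltransferase, was lower in the first KO than in the second (-1.48 ± 0.15, FDR = 0.000284), and DNMT3B and TET3 were lower in WT A than in WT B. In the interaction, 6 of 11 and 9 of 16 passed FDR < 0.1, where 26.9% of all genes did, with medians of -0.29 and -0.24 against 0.10 over all genes. Of 16 binding and processing partners, 2 were called between the lines (ADAM10 and WASF3; 35.7% of all genes), 1 in the HCT116 MSTRG.4401.1 KO (WASF3; 2.62%), 2 between the wild-type sets (ADAM10 and PSEN2; 7.06%) and 6 in the interaction (26.9%).

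Genes beside the clusters and protocadherins elsewhere gave the following values. Of 17 tested neighbours of the clusters, 2 were called between the wild-type lines (35.7% of all genes), CD14 (5.57) and PCDH1 (-5.61). In the A549 MSTRG.2513.6 KO (2.92% of all genes) both tools called 0 of 18, with 1 under an unadjusted p of 0.05, and in the MSTRG.4401.1 KO (15.4%) edgeR called 2 of 18, SLC25A2 (1.37) and CD14 (-1.22). Of 6 tested protocadherins outside the clusters, 6 were called between the lines (35.7% of all genes), 2 higher and 4 lower in A549. PCDH9 gave 44067 counts in A549 WT B and 1 in HCT116 WT B, and PCDH7 was at 0.0841 to 0.409 against 127 to 130 CPM. In the A549 MSTRG.2513.6 KO 2 of 4 were called (2.92% of all genes), and both fell. PCDH9 fell by 1.24 on the log2 scale, and PCDH10, at 0.269 to 0.698 CPM in WT B and 0 in the KO, was at least 7.88-fold lower. PCDH10 passed the filter on low counts only through WT B, so its direction was fixed by the filter. The pseudogene PCDHGB8P, within the gamma cluster, rose in that KO (2.55 ± 0.27, FDR = 0.00279) and in the MSTRG.4401.1 KO (1.42 ± 0.40, FDR = 0.0269), which share their controls. PCDHGB8P was also called with no KO, higher in HCT116 WT A than in WT B (1.31 ± 0.38, FDR = 0.0802).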

How the data were processed

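RNA after rRNA removal was sequenced from 24 libraries of A549 and HCT116 cells. The authors aligned reads to GRCh38 with HISAT2 and quantified genes with StringTie. Trim Galore 0.6.6, FastQC 0.11.9 and HISAT2 2.2.1 are named in the submitters' processing notes. The deposited values were raw counts per gene symbol. The annotation release, the step from StringTie to counts, strand setting and division of reads in shared exons were not given in the sources used here. From these counts, edgeR 4.0.16 (limma 3.58.1, R 4.3.3) was run here on the libraries of the 2 groups compared, with TMM normalization, filterByExpr, glmQLFit and glmQLFTest, adjusted by Benjamini-Hochberg over all genes tested, and called at FDR < 0.1 and |log2(fold change)| > 1, thresholds taken from the study's methods. Scripts were tested on simulated data. CPM used the library total, which ranged from 25799359 to 102261808 counts, so 3 counts equalled 0.0293 to 0.116 CPM. Gene coordinates and exon overlaps came from GENCODE v44 and promoters from RefSeq. Ratios of 1 to 3 counts carry exact 95% binomial intervals.

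Named members were, per comparison, among called members whose groups do not overlap, up to 4 at each end of the ranking by log2(fold change), plus the member of each subfamily with the highest mean CPM. Other members were named after their values were seen. The members and all gene lists (architectural regulators, silencing regulators, neighbours, protocadherins outside the clusters, cluster pseudogenes, binding and processing partners, and cell type markers) were chosen with earlier results of these data known. Alternatives were DESeq2 1.42.0, upper-quartile normalization, other count filters, FDR < 0.05, leaving out each library, a replicate block, the other HCT116 wild-type set, and 1 fit of all libraries of a line. Samples were grouped by cell line, genotype and the letter in their titles. Labels share replicate numbers between the wild-type sets and the MSTRG.34636.7 KO.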

Additional observations from a re-analysis of the deposited data

Results flagged for a closer look

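The interaction test of the MSTRG.4401.1 KO with cell line called 26.9% of all genes (edgeR, log2 scale, A549 minus HCT116, FDR < 0.1). Of the 50 tested members it called 7 (14%), a smaller share. Of these, 3 kept the call whichever of the 12 libraries was left out: PCDHB9 at 9.36 (FDR = 0.00957), with 56 counts in HCT116 WT B and 0 in the HCT116 KO, PCDHB13 at 2.94 (FDR = 0.0114) and PCDHGA2 at -3.33 (FDR = 0.0222). PCDHA1 was at -6.30 (FDR = 0.0516), with 0.174, 0 and 2.58 CPM in the HCT116 KO, and lost its call without S13 or S16, with a value of -3.05 (FDR = 0.296) without S16. PCDHA2 was at -3.74 (FDR = 0.0615), with 0 counts in HCT116 WT B, and lost its call without S15, S16, S12, S13 or S14. PCDHA4 was at -5.12 (FDR = 0.0968), with counts in S10 only among the HCT116 libraries compared, and was at 0.09 without S10. PCDHB11 was at 2.56 (FDR = 0.0784) and lost its call without S23, S24, S20, S21, S10, S15, S12 or S14. For PCDHA1, PCDHA2, PCDHA4, PCDHGA2 and PCDHB9 values are at or near 0, so these fitted differences depend on the prior count. For PCDHB9 the counts allow at least 4.96-fold lower in the HCT116 KO, and a ratio of 6.88 (1.82 to 38.4) of the A549 KO, with 11 counts, to A549 WT B, with 3.

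PCDHGC5 is listed because every library of the MSTRG.2513.6 KO lay to one side of the WT B mean in A549 and to the other side in the HCT116-labelled libraries. Its log2(fold change) in A549 was 1.56 (FDR = 0.149). Under the HCT116 label the values were 1.54 (S11), 0.848 (S8) and 0.310 CPM (S9). WT B was at 0.515 (S12), 0.857 (S13) and 6.90 CPM (S14), where S14 sets the mean. S8 and S9 lay nearer the A549 groups over the members. Without them only S11 is left, which was above S12 and S13 and below S14. The difference between the lines was not tested.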

How the results depend on the processing

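Counts of called members were recomputed under each alternative, by edgeR unless DESeq2 is named. Between the wild-type lines the count went from 37 to 7 with at least 10 counts in every library, and ranged from 37 to 39 with 1 library left out. For the MSTRG.2513.6 KO in A549 (10) the range was 5 to 11, with 5 without S18 and 6 without S20 or S21, and DESeq2 called 15. For the A549 MSTRG.4401.1 KO (6) it was 10 with upper-quartile normalization and ranged from 5 to 8. For the A549 KOs against each other (9) it was 4 at FDR < 0.05 and ranged from 5 to 8, with 5 without S18. For the HCT116 MSTRG.4401.1 KO (2) it was 1 with DESeq2, no filter, at least 10 counts or FDR < 0.05, 0 in 1 fit of all HCT116 libraries and 5 against WT A, and ranged from 1 to 2, with 1 without S10, S15, S16, S13 or S14. For the HCT116 MSTRG.34636.7 KO (0) it was 1 with DESeq2 and 4 against WT B, and ranged from 0 to 1. For WT A against WT B (4) it was 2 in 1 fit of all HCT116 libraries and ranged from 2 to 8, with 2 without S13 or S14 and 8 without 3A of WT A. For the MSTRG.2513.6 KO with the HCT116 label (0) it was 19 with DESeq2, 2 with upper-quartile normalization, 5 with at least 10 counts, 20 in 1 fit of all HCT116 libraries, 1 against WT A and 2 without S8 and S9, and ranged from 0 to 41, with 41 without S11. For the interaction (7) it ranged from 5 to 9. Of single calls, PCDHGA1 between the lines turned to -0.96 against WT A, and PCDHA4 in the interaction, at -5.70 to 0.0894 with 1 library left out, turned without S10. Same-numbered samples did not deviate together (correlations from -0.078 to 0.036). The replicate block, which pairs libraries only by number, gave 36 members between the wild-type lines, 3 between the wild-type sets and 0 in the MSTRG.34636.7 KO. Over all named calls, DESeq2 kept 67 of 67 for which it gave an adjusted p, and leaving out 1 library kept 397, ended 94 and turned 1. The cause of these shifts was not tested. Members under 0.116 CPM are below the floor in the shallowest library.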
